A study of Mus musculus with 8 samples.

Results

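The comparison set retinoic acid (RA) against regular medium (RM) in mouse embryonic stem cells (ESCs) that had been sorted as negative for the *Zscan4* reporter. It used 4 of the 8 arrays of the series, which were 1 array of RA-Zscan4- cells and 3 arrays of RM-Zscan4- cells, chosen by their sample labels alone. All cells came from 1 transgenic line of strain 129/Sv, labelled ES [129.3:zscan4cEmgfp], in which the promoter of *Zscan4c* drives the green fluorescent protein Emerald. Cells were sorted on Emerald fluorescence at culturing day 5, from RM or from RM with 1.5 μM RA, so that the Zscan4- cells are those without visible reporter signal and not cells without the gene. Regular medium is the culture that holds ESCs in self-renewal. The other 4 arrays, 3 of RM-Zscan4+ and 1 of RA-Zscan4+ cells, are the reporter-positive cells of the same cultures.

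*Zscan4* is a cluster of near-identical genes, *Zscan4a* to *Zscan4f*, that is switched on in the embryo at the 2-cell stage and, in an ESC culture, only in a small and changing share of the cells at a time. Together with other genes of the 2-cell embryo it marks a transient state that cells enter and leave. Retinoic acid, a derivative of vitamin A, acts through nuclear receptors and is widely used to drive ESCs into differentiation, during which genes of the pluripotency network are shut down.

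On each array the RNA of sorted cells was labelled with Cy3, and the RNA of 1 reference, a pool of 11 mouse cell lines, with Cy5. The value of a probe is the log2 ratio of sample over reference, so 1 unit is a 2-fold step and 0 is the level of the pool. Of 42006 probes, 41551 had a value on all 4 arrays. With a single RA array no test is possible and no p-value is given. A probe was counted as higher or lower when the RA-Zscan4- array lay at least 3-fold from the mean of the 3 RM-Zscan4- arrays and outside their range. The RA arrays were extracted from their scans in a batch of their own, apart from RM replicates 1 and 3 and from RM replicate 2, so RA and the batch of extraction cannot be told apart. The labels call the RM arrays biological replicates.

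In Zscan4- cells 206 probes were higher in RA by this measure (0.496% of the probes tested) and 102 were lower (0.245%). At least 3-fold beyond even the nearest RM array lay 118 higher (0.284%) and 44 lower (0.106%). The median difference was 2.07 log2 units over the higher probes and -1.84 over the lower ones, against -0.02 over all probes. The 3 RM-Zscan4- arrays had a median SD of 0.12 log2 units per probe, and RA lay above their range at 27.5% and below it at 31.8% of all probes, so position outside the range alone says little. RM-Zscan4- replicate 3 stood apart, with 186 probes at least 3-fold lower than the mean of the other 2 replicates, where replicates 1 and 2 had 2 and 12. It was the lowest of the 3 at 145 of the 206 higher probes (70.4%), against 31.5% of all probes. Without it, 166 probes were higher and 118 lower.

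**Figure D1:**
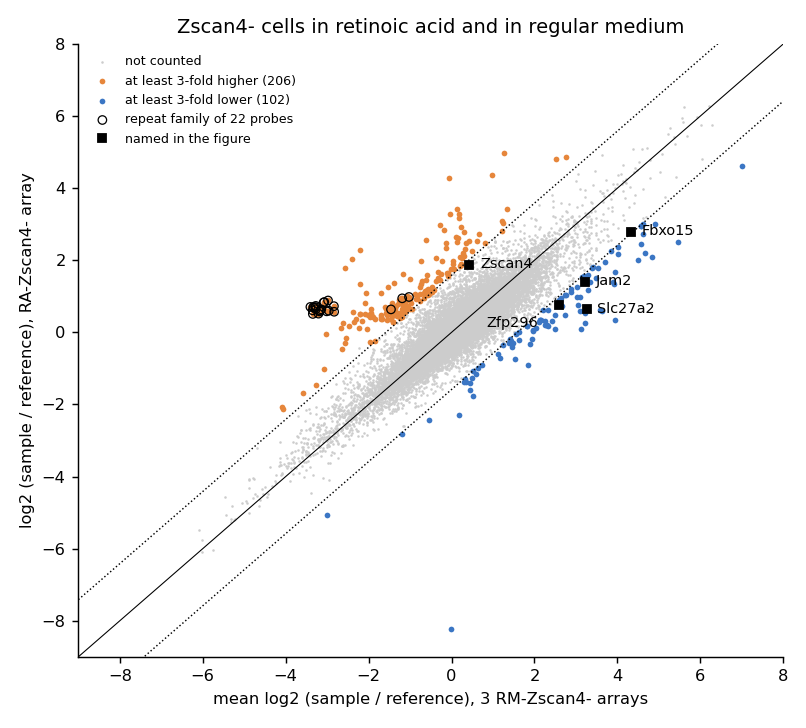
Level of each probe as log2 of sample over reference, with the mean of the 3 RM-Zscan4- arrays on the horizontal axis and the RA-Zscan4- array on the vertical axis; the solid line marks equal levels and the dotted lines a 3-fold difference. The 206 higher probes include a tight group of repeat probes at the left, and the 102 lower probes lie mostly at high levels in RM. The lowest point, at a difference of -8.21, has an RA signal below the negative controls and gives only a bound.

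The higher and the lower probes sat at different levels. The lower probes were mostly strong in ESCs, with a median log2 ratio of 2.54 in RM-Zscan4- and 0.41 in RA-Zscan4-. In the RM-Zscan4+ arrays, which the comparison did not use, the same probes stood at a median of 2.25. The higher probes were mostly weaker than the reference in RM, with a median log2 ratio of -1.19 in RM-Zscan4- and -0.39 in RM-Zscan4+, and came to 0.85 in RA-Zscan4-. Their reference signal was strong. The median Cy5 intensity was 3970 on the RM-Zscan4- arrays, against 653 for the lower probes and 891 for all probes. Their median GC content was 40.0%, that of the lower probes 41.7% and that of all probes 43.3%.

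The deposited arrays name probes and not genes. Gene names were available for 128 probes. They form a list chosen for more signal in RA-Zscan4+ than RA-Zscan4- cells of this series, so a low value on the RA-Zscan4- array helped to choose them and a low value there is no independent evidence. Of these probes, 127 had a value. A single probe was counted as higher and 3 as lower at 3-fold, and 6 and 5 at 2-fold, which 1.36% and 1.03% of all probes reached. The median difference over the list was 0.07, against -0.02 over all probes. Most genes of interest for RA could not be looked up by name. None of 20 RA targets, 14 endoderm, 11 mesoderm, 8 trophoblast and 9 fibroblast genes had a named probe, and 3 of 25 pluripotency genes and 3 of 14 neuroectoderm genes had one.

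The named genes that were lower were strongly expressed in RM. *Slc27a2*, which encodes an acyl-CoA synthetase and fatty acid transporter, had the lowest difference of all named probes. Its log2 ratio was 3.45, 3.11 and 3.21 in RM-Zscan4- replicates 1, 2 and 3 and 0.65 in RA-Zscan4-. The RA value lay far below all 3 RM values, at a difference of -2.61 from their mean of 3.26 ± 0.17 (SD, n = 3), or 6.11-fold lower. In Zscan4+ cells the log2 ratio was 2.46, 3.22 and 2.85 in RM and 2.87 in RA. There the RA array lay inside the RM range. The named list was chosen for more signal in RA-Zscan4+ than in RA-Zscan4- cells, so it favours such a contrast between the sorts.

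*Jam2*, a junctional adhesion molecule of the cell surface, had log2 ratios of 2.89, 3.17 and 3.61 in RM-Zscan4- and 1.40 in RA-Zscan4-. This is 3.53-fold lower than the RM mean of 3.22 ± 0.36 (SD, n = 3), again below all RM arrays. *Zfp296*, a zinc finger gene active in ESCs and germ cells, was also 3.53-fold lower, with 2.12, 2.42 and 3.21 in RM-Zscan4- and 0.76 in RA-Zscan4-. Its replicates were spread wider (SD 0.57), and the RA value was below the lowest of them. Without RM replicate 3 its difference was -1.51, just short of 3-fold. For both genes RA was lower in Zscan4+ cells as well, by less. The difference there was -0.83 for *Jam2* and -0.46 for *Zfp296*, each with the RA array below the 3 RM arrays.

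*Fbxo15*, an F-box gene known as a target of Oct3/4 and Sox2 in ESCs, stood just short of the 3-fold limit. Its log2 ratio was 4.02, 4.84 and 4.14 in RM-Zscan4- and 2.79 in RA-Zscan4-, a difference of -1.54 or 2.91-fold. It passed 3-fold when RM replicate 1 or replicate 3 was left out, at -1.70 without replicate 1, and was -1.29 without replicate 2. By the Cy3 signal alone, without the reference, it was -2.10. In Zscan4+ cells RA stood at 5.14, within the RM values of 5.22, 5.56 and 4.80. The unannotated LOC673503 had 1.37, 1.45 and 1.83 in RM-Zscan4- and 0.18 in RA-Zscan4- (2.59-fold lower). *Rex2*, the last of the 3 pluripotency genes with a named probe, had 2.98, 2.53 and 2.97 in RM-Zscan4- and 2.07 in RA-Zscan4-, a difference of -0.76 that is under 2-fold. All 3 pluripotency genes, *Zfp296*, *Fbxo15* and *Rex2*, thus lay below the range of the RM arrays, as 31.8% of all probes did, with a median difference of -1.54. All 3 are on the list chosen partly for a low RA-Zscan4- value.

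The probes that carry these values are 60 bases long. They are shown for *Zscan4*, whose reporter defined the sort, for the most lowered surface and metabolic genes and for the receptor *Pthr1*. They give the letters of each probe and were not matched to transcripts. The files give no genome build, so no position is given.
Zscan4: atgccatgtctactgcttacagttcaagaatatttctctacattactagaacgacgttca
Slc27a2: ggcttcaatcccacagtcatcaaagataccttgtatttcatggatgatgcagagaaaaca
Jam2: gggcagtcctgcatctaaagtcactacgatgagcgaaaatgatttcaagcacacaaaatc
Pthr1: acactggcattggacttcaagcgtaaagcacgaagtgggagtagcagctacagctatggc

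*Zscan4* itself was higher in RA-Zscan4- than in any RM-Zscan4- array. Its log2 ratio was 0.10, 0.21 and 0.98 in RM-Zscan4- replicates 1, 2 and 3 and 1.88 in RA-Zscan4-, a difference of 1.44 or 2.72-fold from a mean of 0.43 ± 0.48 (SD, n = 3). Reporter-positive cells stood far above both, at 5.08, 5.59 and 5.03 in RM-Zscan4+ and 6.13 in RA-Zscan4+, so the labels of the sort hold on all 8 arrays. Which members of the *Zscan4* cluster the probe reads was not checked. In sorted bulk cells, more cells of a type and more RNA per cell cannot be told apart.

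Other genes of the same state followed in part. The 7 genes of the study's *Zscan4* signature had a median difference of 0.47, and RA lay above the RM range for 5 of them and within it for 2, where 27.5% of all probes lay above. *Gm4340* had 0.83, 0.60 and 1.43 in RM-Zscan4- and 1.73 in RA-Zscan4-. *BC061212*, of the PRAME family, had -0.40, -0.31 and 0.15 against 0.64. The values of *Tcstv1* (difference 0.47) and *AF067063* (0.25) were closer to the RM arrays. *Gm12794*, another PRAME gene, and the translation initiation factor *Eif1a* both differed by 0.09 and lay within the RM range. In RM the replicate with the highest value was replicate 3 for all 7 genes. The ratios of the 7 genes summed to 8.28, 8.18 and 12.4 in RM-Zscan4-, 14.6 in RA-Zscan4-, 115 to 195 in RM-Zscan4+ and 243 in RA-Zscan4+. In Zscan4- cells the Cy3 signal of all 7 was above the negative controls on all 4 arrays. How far reporter-positive cells or transcripts in the negative gate account for the sum was not tested.

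Among the 7 genes of the 2-cell list with a probe, the median difference was 0.09. *Tcstv3*, a gene expressed with *Zscan4*, had -0.13, -0.43 and 1.01 in RM-Zscan4- and 1.17 in RA-Zscan4-, so RA passed the highest RM array by only 0.15. Its difference of 1.01 was between 0.72, without RM-Zscan4- replicate 2, and 1.45, without replicate 3, and was under 2-fold without replicate 1 or replicate 2. *Zfp352* and *Tdpoz5* were slightly below the RM arrays, at -0.10 and -0.14. The unannotated LOC665446 was the only named probe counted as higher at 3-fold, with 0.18, -0.35 and 0.83 in RM-Zscan4- and 1.87 in RA-Zscan4- (3.15-fold). Without RM replicate 2 its difference was 1.37 in place of 1.65, under 3-fold. *Drr2* and LOC545238 were 2.15-fold and 2.03-fold higher. Both were under 2-fold without RM replicate 1, and *Drr2* also without replicate 2, at a difference of 0.92. With normexp and loess LOC545238 had a difference of 0.62. Like *Zscan4*, these 3 probes were much higher in the reporter-positive arrays, where the RM values ran from 1.96 to 5.25.

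*Pthr1*, the receptor for parathyroid hormone and its related peptide (*Pth1r* in RefSeq), had another pattern. Its log2 ratio was 0.41, 0.18 and 0.70 in RM-Zscan4- and 1.67 in RA-Zscan4-, 2.36-fold higher and above every RM array. In RM-Zscan4+ it stood at 0.48, 0.03 and 0.48, which overlaps RM-Zscan4-. The RA-Zscan4+ spot carried an outlier flag and had no value. With normexp background correction and loess the difference was 0.87 in place of 1.24.

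**Figure D2:**
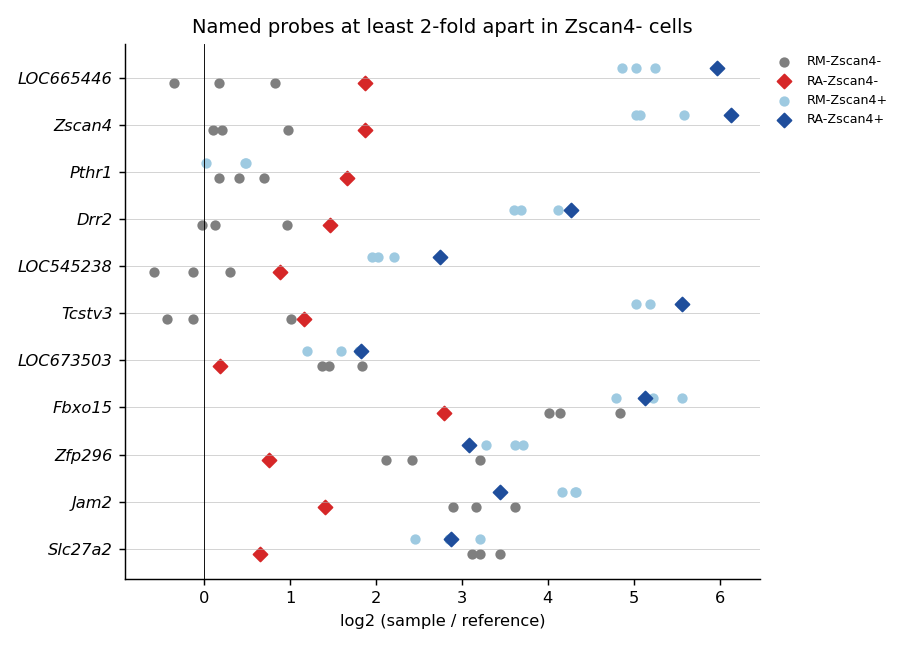
Log2 of sample over reference on each of the 8 arrays for the 11 named probes that lay at least 2-fold from the RM mean and outside the RM range in Zscan4- cells; circles are RM arrays and diamonds RA arrays. For *Slc27a2*, *Fbxo15* and LOC673503 the RA-Zscan4- array lies alone at the left while the 4 Zscan4+ arrays stay together. The named probes were chosen for more signal in RA-Zscan4+ than in RA-Zscan4- cells, which favours this pattern.

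The remaining lists showed few differences of this size. All 3 neuroectoderm genes were close to RM. The differences were -0.02 for *Bdnf*, a nerve growth factor, and 0.12 for the cadherin *Cdh20*. *Lmx1a*, a homeobox gene of the midbrain and hindbrain, had -0.12. Of the 8 chromatin and transcription genes, 4 lay above and 3 below the RM range, where 27.5% and 31.8% of all probes lay, from -0.53 for *Arid4a* and *Zfp809* to 0.77 for the histone H4 gene *Hist1h4i*. *Pif1*, a DNA helicase, had a difference of 0.56 and *Ercc4*, a nuclease of excision repair, -0.27. The stress genes *Hspa1a*, a heat shock protein, and *Bbc3*, a mediator of cell death, differed by 0.11 and 0.15. Of the 5 metabolic enzymes, *Slc27a2* alone passed 2-fold. *Glrx2*, a glutaredoxin, followed at -0.69, and *Arg2*, *Mgll* and *Hdc* lay between -0.23 and 0.31. Among 9 genes of receptors and signalling, *Pthr1* and *Jam2* passed 2-fold and the other 7 lay between -0.36 and 0.34. All 4 secreted and immune genes, *Lgals4*, *Ccl3*, *Serpina5* and *Cpb2*, lay between -0.24 and 0.42. In the ubiquitin list, *Fbxo15* was lowest, *Lonrf3* had -0.61 and *Dub2* 0.04, while *Cand1* had no difference because its spot on RM-Zscan4- replicate 3 carried a flag. The PRAME genes *BC080695* and *D5Ert577e* differed by 0.05 and -0.01.

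The same named probes looked different in Zscan4+ cells. Over 120 of them with a value in both sorts, by sign alone, 68 were higher in RA in both, 47 were lower in Zscan4- and higher in Zscan4+, 5 were lower in both, and 0 were higher in Zscan4- alone. The choice of these probes favours a high RA-Zscan4+ and a low RA-Zscan4- value, so this split is partly set by it. The same split was not counted over all probes, of which 47.6% were higher in RA in Zscan4+ cells. *Jam2*, *Zfp296*, *Fbxo15* and *Rex2* were among the 5 that were lower in both. In Zscan4+ cells *Fbxo15*, at -0.06, and *Rex2*, at -0.07, lay within the RM range.

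**Figure D3:**
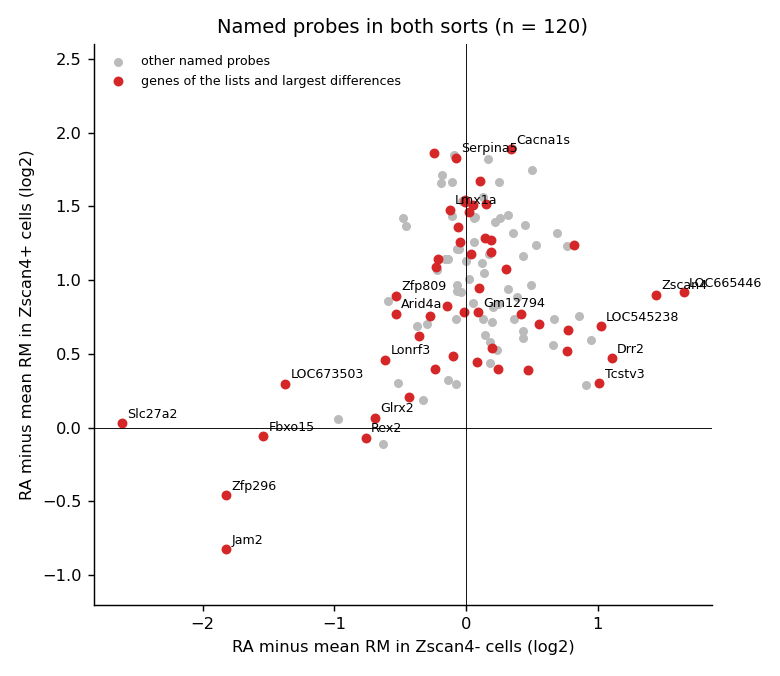
Difference between RA and the mean of 3 RM arrays in Zscan4- cells (horizontal) and in Zscan4+ cells (vertical), in log2 units, for the 120 named probes with a value in both sorts. *Slc27a2* lies at -2.61 and 0.03, and the group of *Zscan4*, LOC665446, *Drr2*, LOC545238 and *Tcstv3* lies to the right in both.

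Among the probes counted in Zscan4- cells, without regard to names, nearly all had an RA difference of the same sign in Zscan4+ cells. The Zscan4+ comparison shares no array with the Zscan4- comparison but shares its batches. By the same measure it had 114 higher probes (0.274%) and 47 lower ones (0.113%), and at 2-fold 446 (1.07%) and 332 (0.799%). The higher lists had 69 probes in common, 33.5% of the Zscan4- list and 60.5% of the Zscan4+ list. The lower lists had 38 in common, 37.3% and 80.9%. No probe was counted in opposite directions. Of the 206 probes higher in Zscan4- cells, 203 had a value in Zscan4+ cells and 98.5% of these were higher in RA there too, with a median difference of 1.27. Of the 102 lower probes, 97.0% of the 100 with a value were lower in Zscan4+ cells, at a median of -1.39. Over all probes 47.6% were higher.

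Among unnamed probes whose signal was above the negative controls, the 2 with the largest difference in each direction had differences of the same sign in both sorts. Probe Z00008436-1 had log2 ratios of -2.07, -2.13 and -2.40 in RM-Zscan4- and 2.27 in RA-Zscan4-, 22.2-fold higher, with a spread in RM of only 0.18 (SD, n = 3). Probe Z00018780-1 had -2.07, -2.85 and -2.31 against 2.05, a difference of 4.46. In Zscan4+ cells these were higher in RA by 3.14 and 3.21. On the other side, Z00052957-1 had 3.41, 5.35 and 3.04 in RM-Zscan4- and 0.35 in RA-Zscan4-, a difference of -3.58, and Z00004978-1 had 3.34, 3.99 and 3.55 against 0.59 (8.20-fold lower). In Zscan4+ cells the differences were -3.50 and -2.50.

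Part of the higher probes belonged to repeats. Most probes had no gene name, so the repeats could not be ranked against sets of genes. The probes of a repeat share letters and are not separate measurements. Probes were joined into families when they shared a stretch of 16 bases on either strand, without use of their values, which gave 14 families of at least 10 probes. The 2 families with the most higher probes are described here, so their counts are a description. All 22 probes of one family were counted as higher, with differences between 2.01 and 4.11. In a second family, 13 of 17 were. Together they made up 35 of the 206 higher probes, and 171 remained without them. The other 12 families, with 253 probes, had 3 higher probes and no lower one.

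The letters of the 22 probes close on themselves. When their 16-base stretches were followed through their overlaps, 158 gave no closed path, while 58, 57, 159 and 16 came back to their start after 58, 60, 116 and 118 bases, as the units of a tandem repeat do. From general knowledge only, these are the letters of mouse major satellite, the repeat of pericentromeric heterochromatin. The name was not checked against a genome, and the closed paths were not matched to the full unit of the satellite. Of the probes, 19 read 1 strand and 3 the other. One of each is printed, with the 48 bases in capitals that are the same stretch on opposite strands.
Z00063749-1: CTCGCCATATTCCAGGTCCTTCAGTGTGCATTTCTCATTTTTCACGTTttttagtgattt
Z00063653-1: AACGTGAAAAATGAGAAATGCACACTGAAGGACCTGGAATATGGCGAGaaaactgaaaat

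On the strand of the 19 probes, after dye normalization, every probe was far below the reference in RM-Zscan4- and above it in RA-Zscan4-. Z00063749-1 had log2 ratios of -3.49, -1.94 and -4.78 in RM-Zscan4- and 0.71 in RA-Zscan4-, a difference of 4.11. Its Cy5 signal was saturated on RM-Zscan4- replicate 3 and on RA-Zscan4-, so this value is not exact. The medians over the 19 probes were -3.25, -1.88 and -4.39 in RM-Zscan4- and 0.64 in RA-Zscan4-, so the RM arrays themselves were over 2 log2 units apart. The median difference was 3.86 (14.5-fold), 3.25 without replicate 3, and 2.53 against replicate 2 alone, the nearest RM array. All 19 were at least 3-fold beyond the nearest RM array. In Zscan4+ cells the medians were -0.80, -1.17 and -2.42 in RM and 0.70 in RA, a median difference of 2.18. These ratios do not order the 2 sorts, because the reference signal of the repeat also differed between them, as given after the dye values.

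On the opposite strand the ratio differed less, and Cy3 and Cy5 did not move as on the first strand. Z00063653-1 had -1.01, -0.85 and -1.71 in RM-Zscan4- and 0.94 in RA-Zscan4-, a difference of 2.13. The 3 probes had a median difference of 2.10 by the ratio but 1.29 by the Cy3 signal alone, under 3-fold for each. Before dye normalization their median Cy3 intensity was 2227, 1829 and 1906 in RM-Zscan4- and 2102 in RA-Zscan4-. The Cy5 intensity of the common reference was 9880, 6981 and 12030 against 4943. These intensities are not scaled between arrays of unlike brightness. After normalization the median Cy3 was 10047, 12109 and 8414 in RM-Zscan4- and 17419 in RA-Zscan4-, and Cy5 was still lower in RA-Zscan4-. On the strand of the 19 probes, before normalization, Cy3 differed far more than Cy5. The median Cy3 was 2325, 6401 and 1134 in RM-Zscan4- and 17568 in RA-Zscan4-. The median Cy5 was 51547, 51540 and 56305 in RM-Zscan4- and 57749 in RA-Zscan4-. The median log2 ratio before normalization was -4.43, -2.89 and -5.50 in RM-Zscan4- and -1.58 in RA-Zscan4-. RA-Zscan4- was thus above the reference only after normalization. The Cy5 signal was saturated at 6 of the 19 probes on the RA array and at some of them on each RM-Zscan4- array. The spread of Cy5 over all 19 is therefore not exact. The 13 that were not saturated in either dye on any Zscan4- array had a median difference of 3.78.

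The reference signal of this repeat was not the same in the 2 sorts. On the strand of the 19 probes its median before normalization lay between 51540 and 57749 on the Zscan4- arrays and between 12154 and 29005 on the Zscan4+ arrays, although the reference RNA is 1 pool. The median Cy3 signal of that strand was 3141, 4515 and 1902 in RM-Zscan4+ and 7400 in RA-Zscan4+, so by Cy3 the RA-Zscan4- array, at 17568, was above RA-Zscan4+, and replicate 2 was higher in RM-Zscan4- while replicates 1 and 3 were higher in RM-Zscan4+. The Cy3 signal of the opposite strand was higher on those Zscan4+ arrays, between 11284 and 65133, against 1829 to 2227 on the Zscan4- arrays, and it was saturated at 2 of the 3 probes on RM-Zscan4+ replicate 1. Whether the sample changes the reference signal was not tested. According to the labels the reference RNA was treated with DNase, and the extraction described for the sorted cells names no such step. Whether the step was left out is not known, and any bearing on these signals was not tested.

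**Figure D4:**
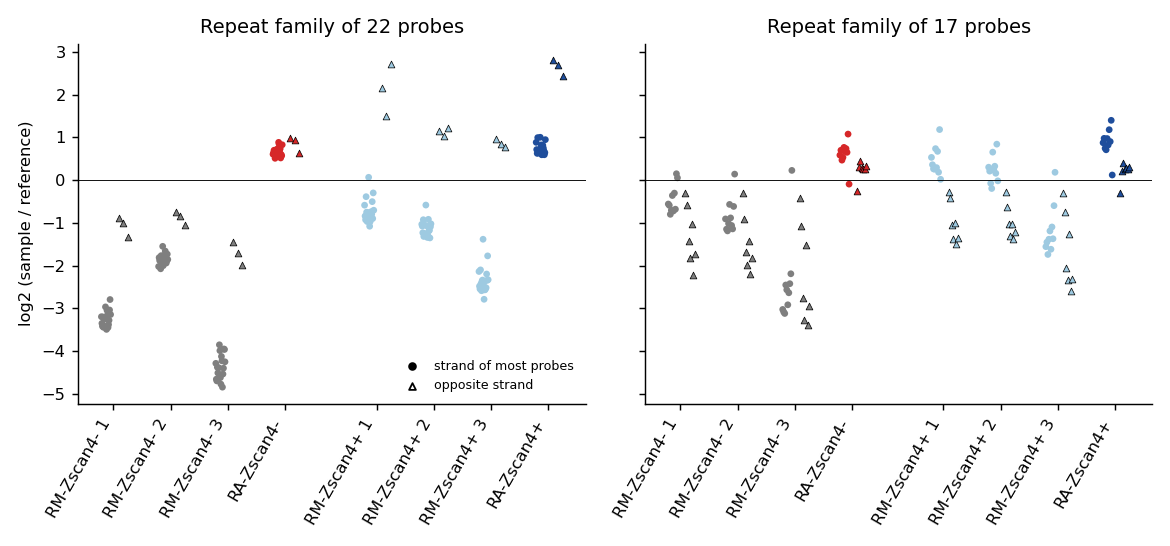
Log2 of sample over reference on each array for the probes of the repeat family of 22 (left) and of 17 (right); circles are probes on the strand of most probes and triangles those on the opposite strand. In the left panel the RA-Zscan4- circles lie between 0.51 and 0.88 and all RM-Zscan4- circles below -1.5.

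**Figure D5:**
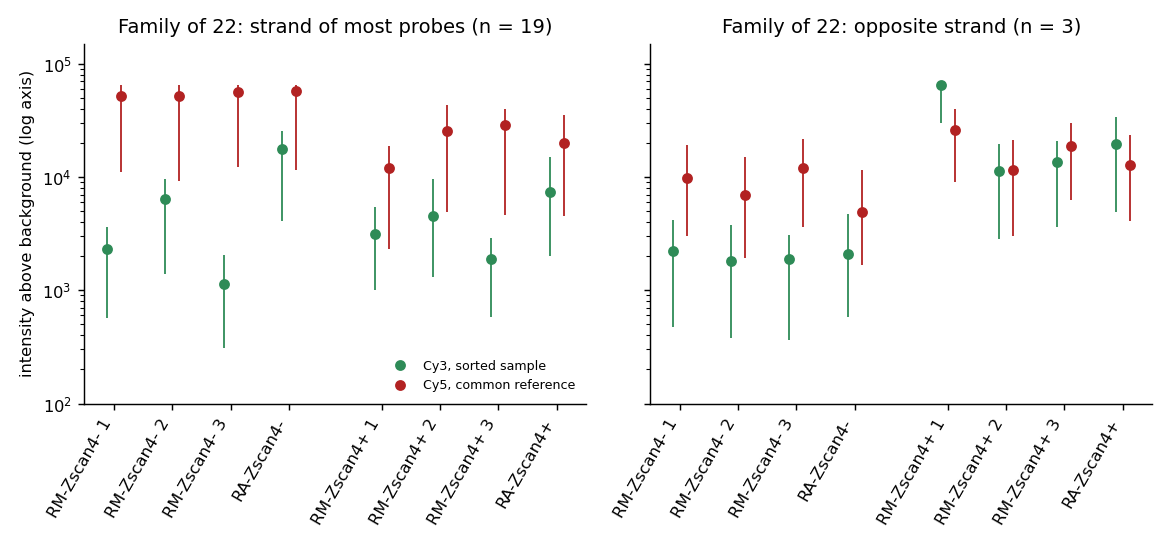
Median and range over probes of the Cy3 and Cy5 intensity above background, before dye normalization and on a log axis, for the 2 strands of the family of 22 on each array. On the left the Zscan4- arrays differ far more in Cy3 than in Cy5, where some Cy5 signals are saturated. On the right RA-Zscan4- is lower than RM-Zscan4- in Cy5. Its Cy3 there is higher than in RM-Zscan4- after normalization, which is not shown.

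The second family, of 17 probes, had 10 on 1 strand and 7 on the other, and 9 and 4 of these were counted as higher. The letters are, again from general knowledge only, those of the LINE-1 retrotransposon. The medians over the 10 probes were -0.57, -0.96 and -2.60 in RM-Zscan4- and 0.66 in RA-Zscan4-. Replicate 3 set the size of this difference. The median was 2.07 with it and 1.41 without it, when 0 of the 10 stayed at 3-fold. The 7 probes of the opposite strand had medians of -1.42, -1.69 and -2.76 in RM-Zscan4- and 0.28 in RA-Zscan4-, and a median difference of 1.99 without replicate 3, when 4 still passed. In Zscan4+ cells the median differences were 1.17 and 1.80.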

How the data were processed

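The authors deposited 1 Agilent scanner file per array with Cy3 and Cy5 intensity values, background-subtracted and dye-normalized (linear and LOWESS) by Feature Extraction, and a series matrix of log10 values, which equals the same ratios plus a level per probe (within 0.005 for over 99.5% of values). The version in the file headers differs from that in the methods. From the processed intensities, log2 of Cy3 over Cy5 was computed with Python 3.11.15. Control spots and spots with an outlier flag were removed, saturated ones stayed in, and repeated spots of a probe were averaged. Signal over background sets the precision. The 95th percentile of 314 negative controls lay between 91.3 and 125 (Cy3) and between 72.2 and 108 (Cy5) on the Zscan4- arrays, and 95.5% to 98.9% of the probes exceeded it in Cy3. The median Cy3 above background was 114 on the RA-Zscan4- array and 136 to 217 in RM-Zscan4-.

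Named were the genes of 17 lists with a probe in S2 Table, the largest differences past 2-fold that were above the negative controls, and 2 unnamed probes each way. Of the 128 symbols, 84 matched RefSeq (GRCm38.p6). Members and lists were chosen with earlier results of these data known. Alternatives used limma 3.58.1 in R 4.3.3 for normexp (offset 50) and loess, Cy3 alone, the series matrix, median centring, flags kept, filters on dim probes, single RM arrays or batches left out, 2-fold, and 3-fold from the nearest RM array. The alternatives for the Zscan4+ sort and for repeat probes were chosen after seeing the data. The code for the counting was run on simulated data with shifts of 2 log2 units, which is above the 3-fold limit. The simulation held no batch effect, so it says nothing on how far the counts reflect RA.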

Additional observations from a re-analysis of the deposited data

Results flagged for a closer look

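In 8 of the genes described here the RA array lay below all 3 RM arrays in Zscan4- cells and above all 3 in Zscan4+ cells. This difference between the sorts was not tested, and the choice of the named probes favours it. The share of all probes with this pattern was not counted, and 31.8% of all probes lay below the RM-Zscan4- range. Some margins were small. *Prkch* was -0.0096 from the nearest RM-Zscan4- array, and LOC673503 had 1.83 in RA-Zscan4+ against a highest RM-Zscan4+ value of 1.80. The differences were -0.048 and 1.26 for *Prkch*, -0.14 and 0.82 for *Tdpoz5*, -0.23 and 0.40 for *Avpi1*, and -0.36 and 0.62 for *Dcbld1*, in the order Zscan4- and Zscan4+. They were -0.53 and 0.89 for *Zfp809*, a zinc finger gene of retrovirus silencing, -0.53 and 0.77 for *Arid4a*, and -0.61 and 0.46 for *Lonrf3*. LOC673503 had -1.37 and 0.30. Other probes of the list showed the same pattern and are not described here.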

How the results depend on the processing

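No paired analysis was possible because the single RA array shares 1 replicate number with the RM arrays and no test was run. Higher and lower counts in Zscan4- cells were 566 and 426 at 2-fold, 118 and 44 at 3-fold beyond the nearest RM array, and between 166 and 253 and between 87 and 124 when 1 RM array was left out. Against RM-Zscan4- replicate 2 alone, the only RM array of its batch, 196 were lower. In Zscan4+ cells the counts were 446 and 332 at 2-fold, 39 and 19 beyond the nearest RM array, and between 97 and 147 and between 47 and 62 when 1 array was left out. By Cy3 alone 177 were higher there, and against replicate 2 alone 116 were lower. The count of higher S2 Table probes was 0 after normexp and loess, 2 by Cy3 alone, 6 at 2-fold, 0 beyond the nearest RM array, between 0 and 2 with 1 array left out, 0 against the first batch and 3 against the second. That of lower ones was 5 at 2-fold, 1 beyond the nearest array and between 3 and 4 with 1 array left out. The median over the list was 0.19 by Cy3 alone and between 0.02 and 0.09 with 1 array left out. The causes were not tested. No named probe past 2-fold changed direction under any alternative. The single RA array and its own batch limit every value, since neither can be separated from RA.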

Other observations

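Letters of the probes that also occur in promoters were counted over all higher probes, those of the 2 repeat families included. How much of the counts these families make up was not determined. A stretch of 20 bases of the probe was found, on either strand, in at least 1 of 32851 RefSeq promoter windows for 39 of the 206 higher probes (18.9%), 1 of the 102 lower probes (0.98%) and 2.49% of all probes. At least 5 windows held it for 9 of the higher probes (4.37%), 0 of the lower ones and 0.233% of all probes. A match says that these letters occur there, and not which gene the probe measures.

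Most other families of repeated probes were close to RM or below it. The median difference over the 12 ran from -0.66, in a family of 20 probes, to 0.76, in a family of 12 that held the 3 higher probes. The largest family, of 91 probes, had a median difference of -0.07 and no probe counted in either direction. Of the 206 higher probes, 71 had RM-Zscan4- arrays that were themselves at least 3-fold apart. This held for 11 of the 102 lower probes and for 369 of all 41551 probes (0.888%).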
